A study of Mus musculus with 8 samples.

Results

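The genes described here are 43 members of the nuclear hormone receptor superfamily, taken by gene symbol from the 55487 genes listed for splenic regulatory T cells (Tregs) of C57BL/6 mice. All 43 symbols were found in both deposited tables, so each receptor has a value in all 8 libraries. The choice used symbols only and no measured value. Gene positions are those of GENCODE vM21 on the mouse build GRCm38.

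Nuclear receptors are transcription factors with a zinc finger DNA-binding domain and, in most members, a pocket that binds a small lipid-soluble ligand such as a steroid, a thyroid hormone, a retinoid or an oxysterol. Many of them bind DNA as a pair with a retinoid X receptor (RXR), and a bound ligand lets them exchange corepressors for coactivators of the steroid receptor coactivator family. SRC-3, encoded by Ncoa3, belongs to that family. In Tregs the retinoic acid receptor alpha is known for its part in the induction of Foxp3 and of gut homing, and the peroxisome proliferator-activated receptor gamma and the RAR-related orphan receptor alpha for Tregs that reside in tissues.

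Tregs lacking SRC-3 (SRC-3KO) were compared with control Tregs, in mice with a tumor and in mice without, in a study of the anti-tumor action of SRC-3KO Tregs. Cells sorted from the spleen for GFP were used for SMART-Seq v4 libraries, whose cDNA is amplified whole from very little RNA. The groups, of 2 libraries each, were SRC-3KO Tregs of tumor-bearing mice, control Tregs of tumor-bearing mice named FOXP3cre, SRC-3KO Tregs of mice without a tumor, and control Tregs of mice without a tumor. Both SRC-3KO libraries without a tumor carry Tam1 in their names, a word the sources used here do not explain; whatever it stands for and the genotype cannot be told apart there. Of the no-tumor controls, replicate 1 is named WT, with a source label that does not mention GFP, and replicate 2 is named FOxP3_Cre. The sources used here do not give the type of tumor, how SRC-3 was deleted, or the age and sex of the mice. Nothing in the labels says that replicates came from separate animals, so p-values measure only the spread between these libraries, and that spread may be technical.

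Read counts are held for the no-tumor libraries, with totals between 24159217 and 31075452, and are given here as counts scaled to the library total (CPM). The tumor libraries are held as StringTie FPKM, scaled to transcript length and library size, and no depth is known for them. The tables were normalized separately, so tumor and no-tumor values stand side by side below without a test. Ncoa3 was at 47.5 and 27.7 FPKM in SRC-3KO Tregs and 37.7 and 45.4 FPKM in control libraries with a tumor, and at 39.8 and 24.5 CPM in SRC-3KO Tregs and 131 and 58.7 CPM in control libraries without a tumor. The genotype groups overlapped in the tumor libraries, and since the deleted exons are not given, a gene-level value of Ncoa3 cannot check the labels. Foxp3 was detected in all 8 libraries, at 14.7 to 28.8 FPKM with a tumor. Without a tumor control replicate 1 stood apart, with 230 CPM of Foxp3 against 9.33 to 22.3 CPM in the other 3 libraries and 23941 genes above 0 against 15333 to 17915, so the counts, the list medians and the receptor values that it moves most are also given without it. With a tumor control replicate 2 held 3998 FPKM of summed neutrophil markers, against 0.180 to 4.73 FPKM in the other 3 libraries, and the counts and the receptor values that it moves most are also given without it.

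Most of the family was silent or nearly so. A receptor was called expressed when it reached at least 1 FPKM or 1 CPM in at least 2 libraries of a table. By that rule 16 of 43 receptors were expressed with a tumor and 17 without, and 14 were expressed in both states. These 14 were the retinoic acid receptors Rara and Rarg, the retinoid X receptors Rxra and Rxrb, the liver X receptor Nr1h2, the clock receptors Rora and Nr1d2, the glucocorticoid receptor Nr3c1, the vitamin D receptor Vdr, Pparg, Esrra, Nr2c1, Nr2c2 and Nr2f6. Nr1d1 and Nr1i3 passed only in the tumor table, and Thra, Ppard and Nr6a1 only in the no-tumor table. These cutoffs are unlike, because FPKM is scaled to length and CPM is not, so a long gene passes more easily in CPM. Ppard without a tumor was at 0.213 and 0.236 CPM per kilobase in SRC-3KO Tregs and 1.01 and 0.446 in control libraries. Nr6a1 was at 0 and 0.175 CPM per kilobase in SRC-3KO Tregs and 0.307 and 0.0994 in control libraries. Passing in a single table is thus not a difference between tumor states. The remaining 24 receptors passed in neither. At least 1 FPKM in all 4 tumor libraries was reached by 12 receptors, and at least 1 CPM in all 4 no-tumor libraries by 10.

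Among the receptors not expressed were those best known from the liver, the gonads, the adrenal cortex and the retina. The hepatocyte nuclear factors Hnf4a and Hnf4g, the oestrogen receptor beta Esr2, the progesterone receptor Pgr, the DNA-binding-domain-less repressors Nr0b1 and Nr0b2, and the photoreceptor-specific Nr2e3 were at 0 in all 8 libraries. The others that did not pass were Thrb, Rarb, Ppara, Rorb, Nr1h3, the bile acid receptor Nr1h4, the pregnane X receptor Nr1i2, Rxrg, Nr2e1, Nr2f1, Nr2f2, the oestrogen receptor alpha Esr1, Esrrb, Esrrg, the mineralocorticoid receptor Nr3c2, and the steroidogenic factors Nr5a1 and Nr5a2. In all, 14 receptors were at 0 in the 4 tumor libraries and 12 in the 4 no-tumor libraries. A count of 0 without a tumor allows a level of up to 0.0965 to 0.124 CPM, taking 3 counts as the limit for each library and covering counting error only. Control replicate 1 without a tumor had 28 receptors above 0, against 17 to 20 in the other 3 libraries of that table.

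**Figure D1:**
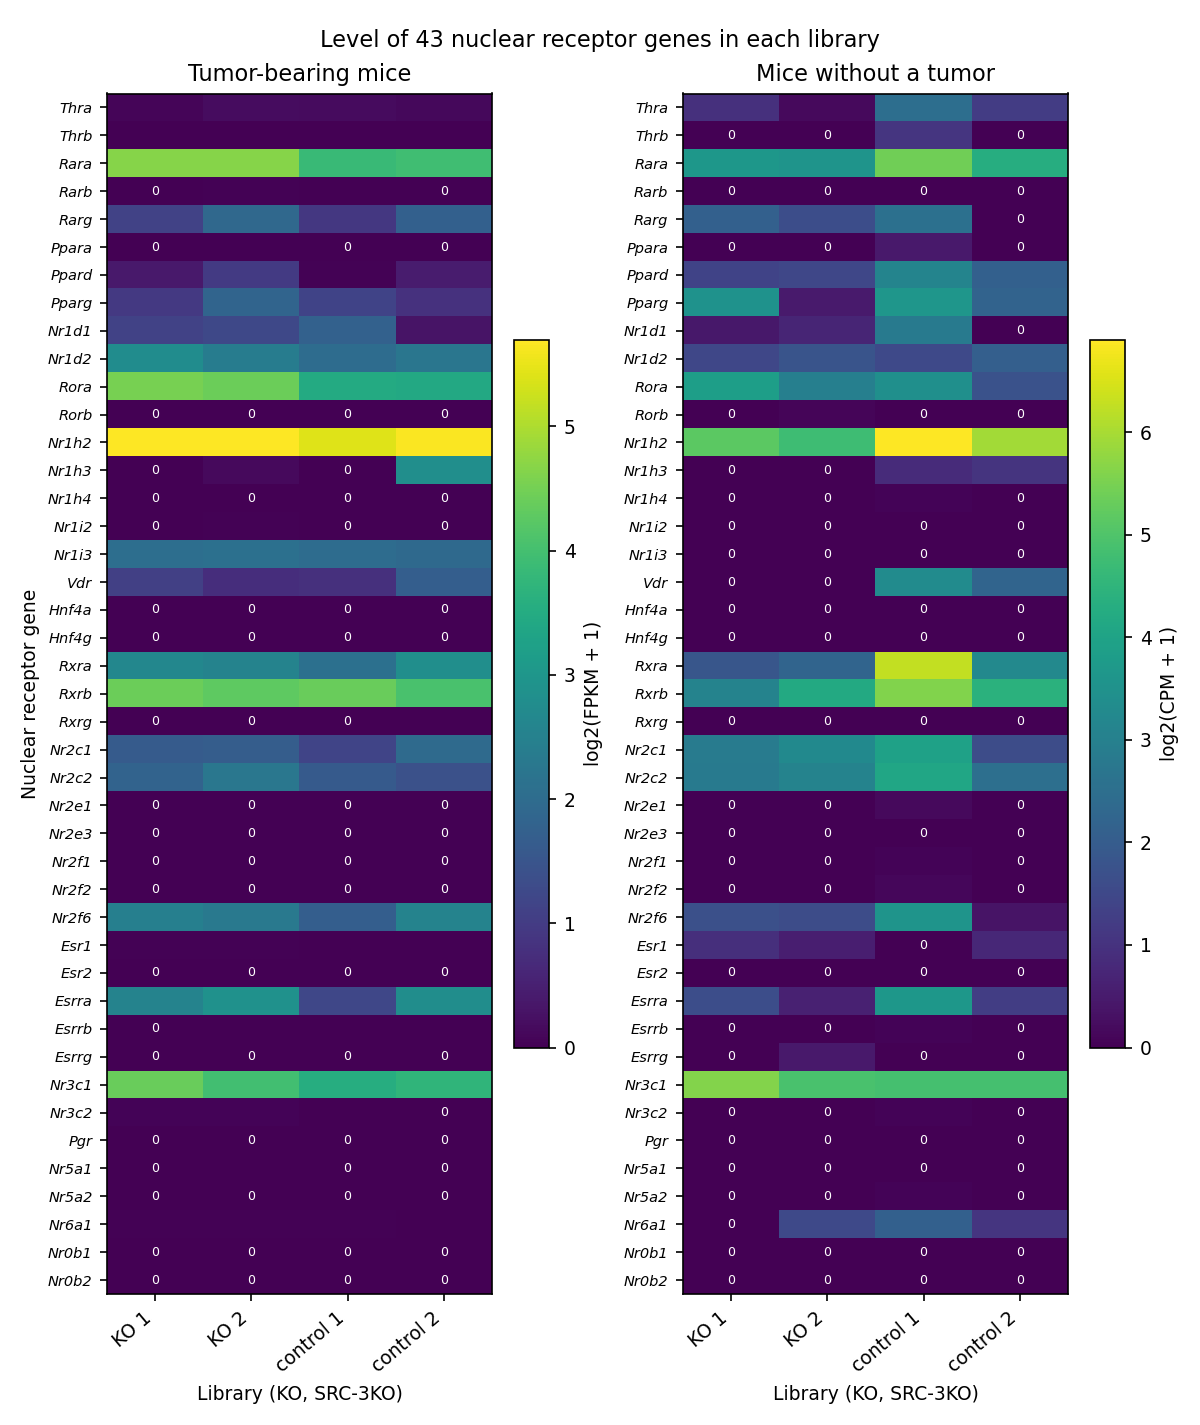
Level of the 43 receptors (rows, by family) in each of the 8 libraries (columns), with tumor libraries in FPKM and no-tumor libraries in CPM, on a log colour scale. The 7 receptors at 0 in every library can be read off the rows, as can Nr1h2 as the highest receptor in the tumor libraries. Of the no-tumor libraries, control replicate 1 shows the most receptors above 0.

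One receptor led the family in every library. On a per-length scale, which allows genes to be compared, Nr1h2 had the highest level of the 43 in each of the 8 libraries. It stood at 50.8 and 50.3 FPKM in SRC-3KO Tregs and 41.9 and 49.9 FPKM in control libraries with a tumor. Without a tumor its level was 10.4 and 7.70 CPM per kilobase in SRC-3KO Tregs and 35.3 and 18.2 CPM per kilobase in control libraries. Nr1h2 made up 29.8% and 30.4% of the summed receptor level in SRC-3KO Tregs and 35.6% and 35.1% in control libraries with a tumor. Among protein-coding genes it ranked at percentiles 94.2 and 94.3 in SRC-3KO Tregs and 92.1 and 93.6 in control libraries of that state.

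Below Nr1h2, the mean levels in the tumor libraries ran from Rara through Rxrb, Rora and Nr3c1, all between 9.82 and 24.3 FPKM, to Rxra, Esrra, Nr1d2 and Nr2f6, between 1.30 and 6.39 FPKM. Rara, Rxrb, Rora and Nr3c1 are neighbours in that order whose ranges over the 4 libraries overlap. The same holds for Rxra, Esrra, Nr1d2 and Nr2f6. Nr1i3, Nr2c2, Nr2c1, Rarg, Pparg, Nr1d1 and Vdr followed, each between 0.237 and 3.79 FPKM. Without a tumor the 5 highest per kilobase were Nr1h2, Rxrb, Rara, Nr3c1 and Rxra, with Rxra reaching that place through control replicate 1 (13.8 CPM per kilobase) against 0.473 to 1.57 CPM per kilobase in the other 3 libraries. By mean level Rora had rank 4 of the receptors in the tumor table and rank 10 in the no-tumor table. Its percentiles among protein-coding genes were 86.9 and 86.3 in SRC-3KO Tregs and 78.6 and 77.3 in control libraries with a tumor, and 64.4 and 59.9 in SRC-3KO Tregs and 58.8 and 56.2 in control libraries without.

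**Figure D2:**
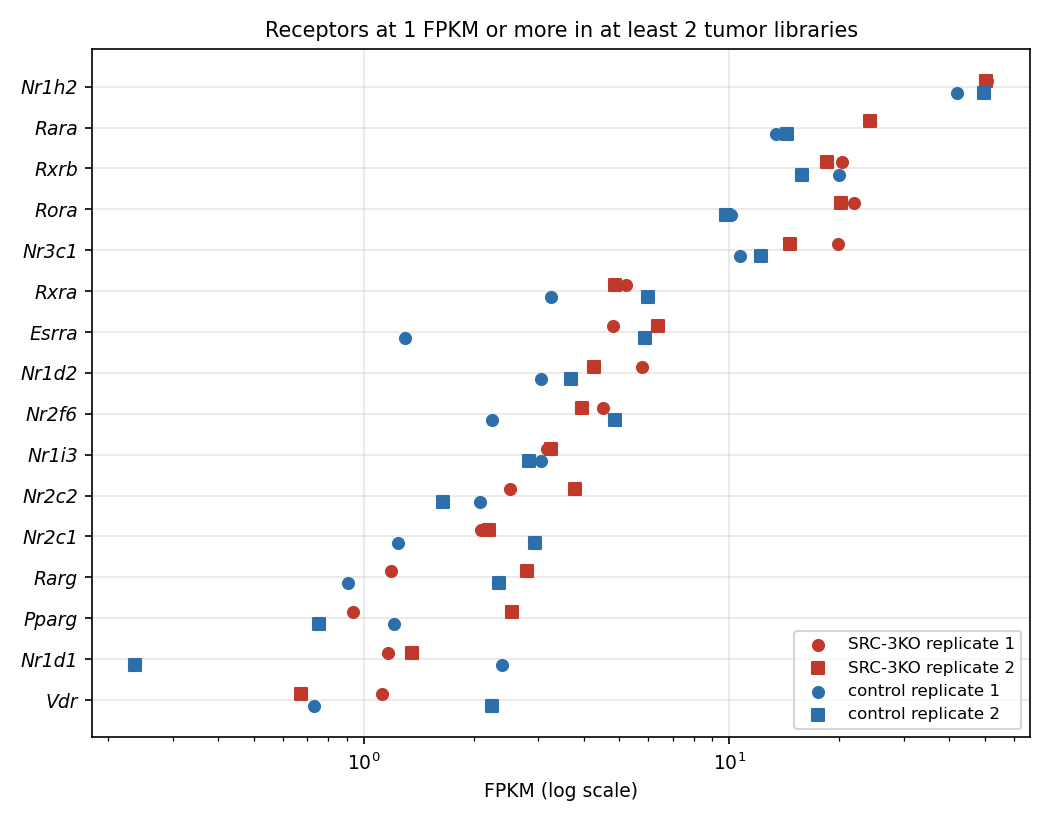
FPKM on a log axis of the receptors expressed in the tumor libraries, ordered by mean level, with 1 point per library and SRC-3KO beside control. Rora and Rara show the widest gaps between the genotypes, with both SRC-3KO libraries above both controls, and Nr1h2 stands highest.

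**Figure D3:**
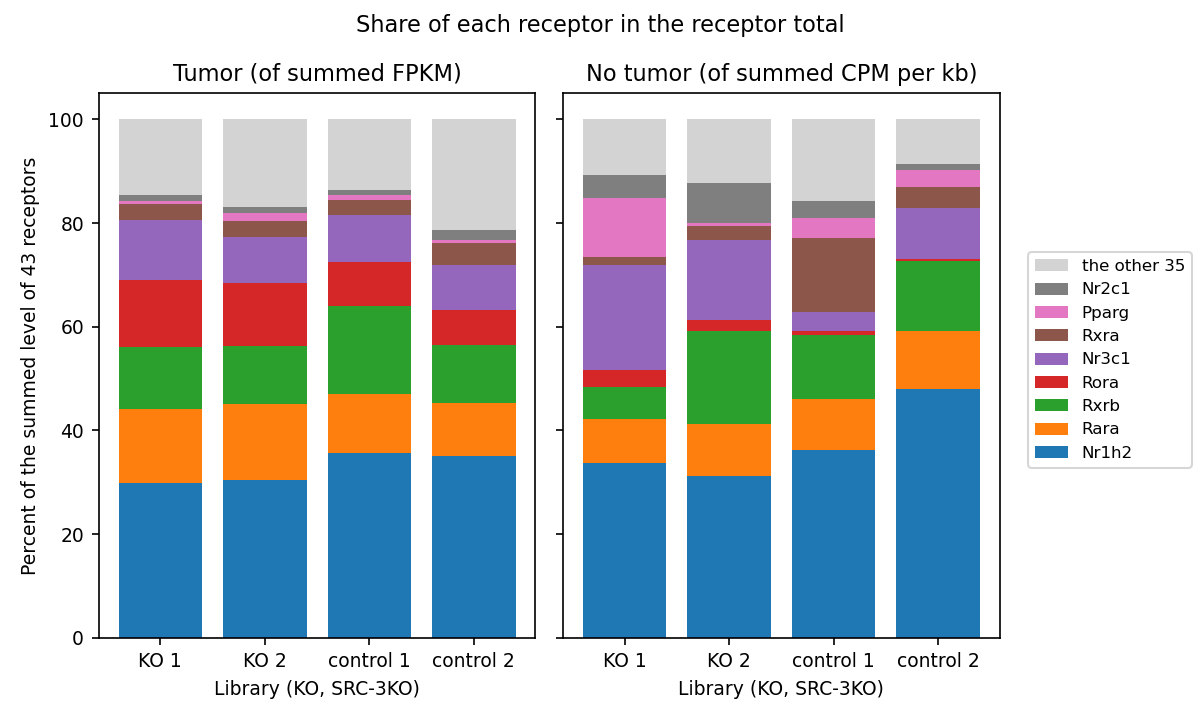
Share of the summed receptor level, in percent, held by the leading receptors in each of the 8 libraries, from FPKM with a tumor and CPM per kilobase without. Nr1h2 holds the largest share in every library, and Rora holds 12.9% and 12.2% in SRC-3KO Tregs and 8.61% and 6.92% in control libraries with a tumor.

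No receptor passed the test between genotypes in either state at an adjusted p of 0.05. With a tumor, 16 receptors passed the filter on low values and 0 were called by limma, where 0.109% of all 12859 genes tested were called. Without a tumor, 20 receptors were tested and 0 were called by edgeR, where 0% of 14860 genes were called. At an unadjusted p under 0.05 there were 2 receptors with a tumor, Rora and Rara, both higher in SRC-3KO, where 16.5% of all genes reached that. Without a tumor there were 3, Rxra, Nr1h3 and Vdr, all lower in SRC-3KO, where 3.18% of all genes reached it. Nr1h3 and Vdr had 0 counts in both SRC-3KO libraries and entered the test through the controls alone, so lower was their only possible direction. DESeq2 called Vdr alone of the 20 receptors without a tumor, where it called 0.585% of all genes.

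Most fold changes lay above 0 with a tumor and below 0 without. With a tumor, 15 of the 16 tested receptors had a log2 fold change above 0 and 1, Vdr, below, with a median of 0.23 on the log2(FPKM + 1) scale, against -0.02 for all genes. Both SRC-3KO libraries stood above both controls for 7 of the 16 (against 27.5% of all genes tested) and below both for 0 of the 16 (against 24.9% of all genes). The 7 were Rora, Rara, Nr3c1, Nr1d2, Nr2c2, Nr1h2 and Nr1i3. After the trend of fold change with GC content and transcript length was removed, the median was 0.10, with 13 of 16 above 0. Without control replicate 2 the tumor median was 0.50, with 13 of 15 tested receptors above 0, and without control replicate 1 it was 0.14, with 9 of 15 above 0. Leaving out control replicate 2 gave log2 fold changes of 0.50 for Rxra (0.15 with all 4 libraries), 0.69 for Nr2f6 (0.26), 0.49 for Nr2c1 (0.08), 0.60 for Rarg (0.19) and -0.59 for Nr1d1 (0.14). Without a tumor, 4 of the 20 tested receptors were above 0 and 16 below, with a median log2 fold change of -1.31, against -0.02 for all genes. Both SRC-3KO libraries were above both controls for 1 of the 20, Nr3c1 (against 18.3% of all genes), and below both for 8 (against 21.0% of all genes), namely Thra, Rara, Ppard, Nr1h2, Nr1h3, Vdr, Rxra and Rxrb. Nr1h3 and Vdr, at 0 in both SRC-3KO libraries, could only stand lower, and they are in the 8, the 16 and the median. Leaving out control replicate 1 without a tumor gave log2 fold changes of 9.25 for Rarg (0.24 with all 4 libraries) and 6.84 for Nr1d1 (-2.50). Control replicate 2 was at 0 counts for both. The values were 2.94 for Nr2f6 (-1.31) and 1.96 for Nr2c1 (-0.05). Without control replicate 1 the no-tumor median was -0.03, with 10 receptors above 0 and 10 below. Without control replicate 2 it was -1.88, and 7 of 21 receptors were called lower, where 43.8% of all genes were called. Removal of the GC and length trend gave -0.24, with 8 of 20 above 0. Receptors that failed the filter are not in these counts, and the difference between states was not tested.

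The summed receptor level is made of the same values, so it is not a separate result. It was 170 and 165 FPKM in SRC-3KO Tregs and 118 and 142 FPKM in control libraries with a tumor, and 30.98 and 24.6 CPM per kilobase in SRC-3KO Tregs and 97.1 and 37.9 CPM per kilobase in control libraries without a tumor. The groups did not overlap in either state. The log2 ratio of the mean sums was 0.37 with a tumor (0.24 without control replicate 1 and 0.51 without control replicate 2). Without a tumor the ratio was -1.28, and it was -0.45 when control replicate 1 was left out. These are bulk samples, in which fewer cells of a type and less RNA per cell cannot be told apart.

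**Figure D4:**
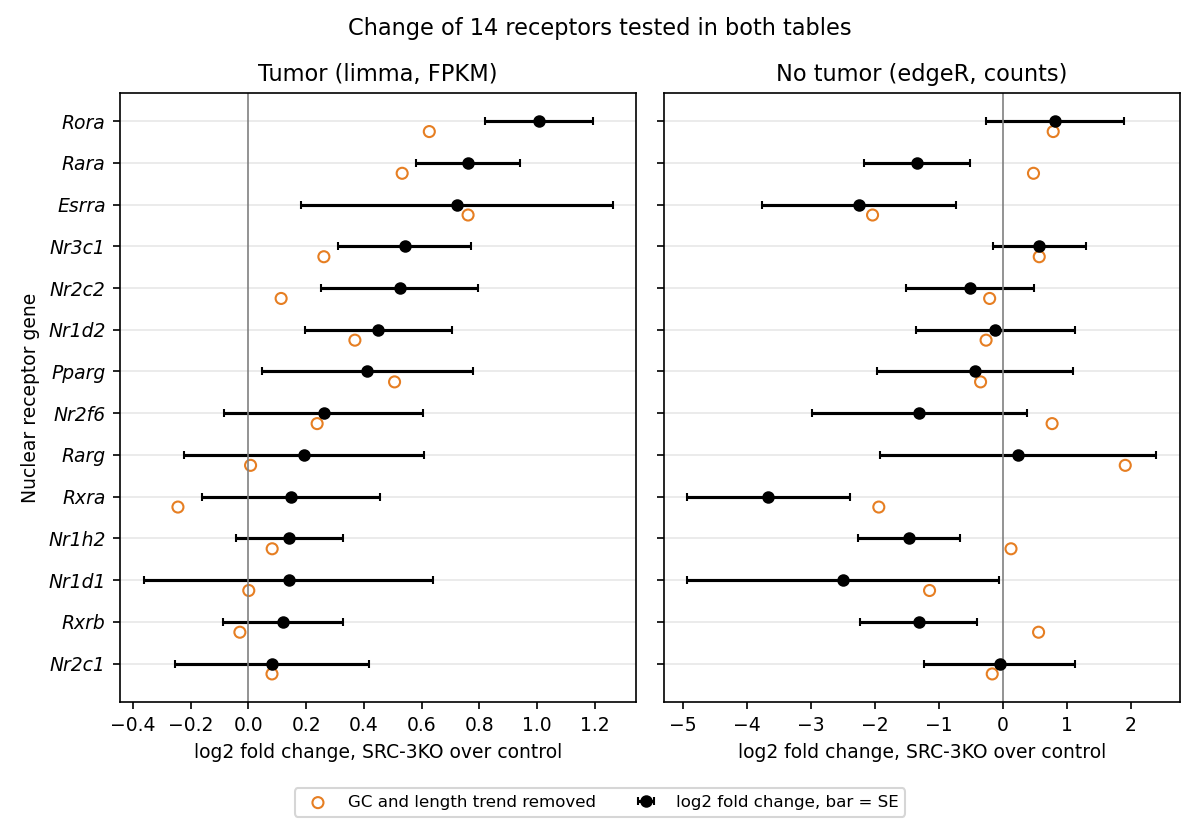
Log2 fold change of SRC-3KO over control for the 14 receptors tested in both states and with reads in both genotypes, as fitted and after removal of the GC and length trend, with standard errors on the fitted values. With a tumor the fitted values lie close to or above 0, and without a tumor most lie below 0 with wide errors.

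The retinoic acid receptors bind all-trans retinoic acid, and Rara was by far the leading one. Rara (ENSMUSG00000037992, chromosome 11, 98927818 to 98974942, plus strand) was at 24.2 and 24.3 FPKM in SRC-3KO Tregs and 13.5 and 14.4 FPKM in control libraries with a tumor. Both SRC-3KO libraries stood above both controls, and the gap was wider than the spread within either genotype. The log2 fold change was 0.76 (SE 0.18, limma adjusted p = 0.177). Removal of the GC and length trend left 0.53. Over the 9 alternatives it ran between 0.53 and 0.81, with limma adjusted p between 0.0320 and 0.996; the lowest came without control replicate 2, where 20.1% of all genes were called. Without a tumor Rara was at 11.5 and 10.8 CPM in SRC-3KO Tregs and 41.5 and 18.7 CPM in control libraries, so that both SRC-3KO libraries stood below both controls. That log2 fold change was -1.34 (SE 0.83, edgeR adjusted p = 0.910). It was -0.67 without control replicate 1, and removal of the GC and length trend flipped it to 0.48.

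Rarg was lower and uneven, at 1.19 and 2.79 FPKM in SRC-3KO Tregs and 0.903 and 2.34 FPKM in control libraries with a tumor. The no-tumor values were 3.35 and 2.12 CPM in SRC-3KO Tregs and 4.79 and 0 CPM in control libraries, and the genotypes overlapped in both states. The ratio of Rara to Rarg was 20.4 and 8.70 in SRC-3KO Tregs and 14.9 and 6.15 in control libraries with a tumor. Rarb stayed at or under 0.0169 FPKM and at 0 counts without a tumor. Its exons share 34.1% of their bases with Top2b on the opposite strand.

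Promoter windows are shown for Rara and Rora, the receptors with the smallest unadjusted p with a tumor, and for Nr1h2, the receptor with the highest level. The windows run from 250 bases before to 50 bases after an annotated start, 5′ to 3′ on the strand of the gene, from RefSeq on GRCm38.p6. Capitals mark matches, on either strand, to AGGTCA, the nuclear receptor half-site, or to CACGTG, the E-box bound by clock and Myc-type factors. Neither motif overlaps the other in these windows.
Rara, chr11:98937446-98937745, plus strand: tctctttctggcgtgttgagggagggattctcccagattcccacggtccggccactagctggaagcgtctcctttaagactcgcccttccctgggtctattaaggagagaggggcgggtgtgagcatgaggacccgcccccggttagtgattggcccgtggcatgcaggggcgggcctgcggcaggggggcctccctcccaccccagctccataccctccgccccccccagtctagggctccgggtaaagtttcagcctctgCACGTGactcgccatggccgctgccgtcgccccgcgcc
Rara, chr11:98964622-98964921, plus strand: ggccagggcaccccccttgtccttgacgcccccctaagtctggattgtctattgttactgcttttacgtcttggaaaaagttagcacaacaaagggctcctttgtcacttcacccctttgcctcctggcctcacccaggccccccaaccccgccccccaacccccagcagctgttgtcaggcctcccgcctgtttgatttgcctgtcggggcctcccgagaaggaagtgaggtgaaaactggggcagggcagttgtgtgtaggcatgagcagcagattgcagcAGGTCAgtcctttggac
Rora, chr9:68653536-68653835, plus strand: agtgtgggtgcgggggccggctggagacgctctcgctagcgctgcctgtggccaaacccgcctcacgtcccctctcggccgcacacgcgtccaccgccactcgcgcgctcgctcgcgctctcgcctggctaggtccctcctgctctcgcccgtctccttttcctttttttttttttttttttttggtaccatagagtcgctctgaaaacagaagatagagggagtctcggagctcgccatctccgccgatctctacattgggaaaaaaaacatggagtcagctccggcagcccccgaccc
Nr1h2, chr7:44553916-44554215, minus strand: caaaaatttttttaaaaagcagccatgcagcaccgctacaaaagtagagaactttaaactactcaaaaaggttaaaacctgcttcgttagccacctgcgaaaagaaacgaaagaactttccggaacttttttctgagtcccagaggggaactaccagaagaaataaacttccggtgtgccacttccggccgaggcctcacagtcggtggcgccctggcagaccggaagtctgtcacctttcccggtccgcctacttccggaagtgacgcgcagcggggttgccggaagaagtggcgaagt
The upstream Rara window holds the E-box at base 263 and the downstream one the half-site at base 284, counted from the 5′ end. Of the 4 Rara windows in the table, another overlaps the upstream one and holds the same E-box, and the remaining one holds neither motif. The Rora and Nr1h2 windows hold neither string of letters. Of the 43 receptors, 39 matched 60 windows in the RefSeq table. AGGTCA was in 12 of these 60 windows (20.0%), against 16.3% of all 32851 windows, and CACGTG in 6 of 60, against 7.15% of all. The 4 receptors not matched were Thra, Hnf4g, Nr5a1 and Nr3c1. A match describes the sequence only.

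The genes of retinoid metabolism and retinoic acid response, a list of 14, had 6 tested members with a tumor and 8 without, and 0 were called in either state. The median log2 fold change was -0.18 with a tumor, and 0.20 there without control replicate 2. It was -0.83 without a tumor, which became -0.02 when the GC and length trend was removed and 0.26 when control replicate 1 was left out. Crabp2, which carries retinoic acid to the nucleus, was at 37.7 and 50.9 FPKM in SRC-3KO Tregs and 78.6 and 72.1 FPKM in control libraries with a tumor (log2 fold change -0.77, SE 0.22, limma adjusted p = 0.221). Without a tumor Crabp2 was at 96.5 and 197 CPM in SRC-3KO Tregs and 21.5 and 51.6 CPM in control libraries (2.17, SE 0.90, edgeR adjusted p = 0.910; 1.59 when control replicate 1 was left out). The genotypes did not overlap in either state, and the fitted direction was opposite to that of Rara in both. Without a tumor this depended on GC content and length, as removing their trend gave 1.81 for Crabp2 and 0.48 for Rara. With a tumor the same step gave -0.50 for Crabp2 and 0.53 for Rara. A change of order between the states, as in both genes, was seen in 15.0% of the 11674 genes tested in both. A relation between Crabp2 and Rara was not tested. Itgb7, a subunit of the gut-homing integrin, was at 144 and 97.4 FPKM in SRC-3KO Tregs and 128 and 97.2 FPKM in control libraries with a tumor, and at 43.5 and 24.9 CPM in SRC-3KO Tregs and 106 and 70.1 CPM in control libraries without.

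The retinoid X receptors pair with retinoic acid, vitamin D, liver X and PPAR receptors. Rxrb was the main one with a tumor, at 20.3 and 18.5 FPKM in SRC-3KO Tregs and 20.0 and 15.8 FPKM in control libraries, with overlapping genotypes (log2 fold change 0.12, SE 0.21, limma adjusted p = 0.785). Rxra was at 5.22 and 4.88 FPKM in SRC-3KO Tregs and 3.26 and 5.99 FPKM in control libraries, and also overlapped. Its log2 fold change was 0.15, and -0.24 once the GC and length trend was removed. The ratio of Rxrb to Rxra was 3.90 and 3.78 in SRC-3KO Tregs and 6.12 and 2.64 in control libraries with a tumor. Rxrg stayed at or under 0.0116 FPKM and at 0 counts without a tumor.

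Without a tumor Rxra had one of the widest gaps of the family, and control replicate 1 set its size. It was at 2.59 and 3.64 CPM in SRC-3KO Tregs and 75.2 and 8.57 CPM in control libraries. Both SRC-3KO libraries stood below both controls, and the controls differed from each other more than control replicate 2 did from SRC-3KO. The log2 fold change was -3.67 (SE 1.27, edgeR adjusted p = 0.910). It was -1.38 without control replicate 1, -4.55 without control replicate 2, and -1.94 once the GC and length trend was removed. Rxrb was at 7.47 and 17.4 CPM in SRC-3KO Tregs and 47.2 and 20.2 CPM in control libraries, again with the SRC-3KO libraries below both controls (-1.32, SE 0.92, edgeR adjusted p = 0.910). It was -0.62 without control replicate 1, and removal of the GC and length trend flipped it to 0.56.

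The retinoid-related orphan receptor Rora and the REV-ERB repressors Nr1d1 and Nr1d2 compete for the same DNA elements, Rora as an activator, and link the circadian clock to metabolism. Rora (ENSMUSG00000032238, chromosome 9, 68653786 to 69388246, plus strand) had the largest fitted fold change of the tested receptors with a tumor, although Esrra exceeded it when the GC and length trend was removed (0.76 against 0.63) or control replicate 2 was left out (1.51 against 0.98). It was at 22.0 and 20.2 FPKM in SRC-3KO Tregs and 10.1 and 9.82 FPKM in control libraries. Both SRC-3KO libraries were about level with each other and stood well above both controls. The log2 fold change was 1.01 (SE 0.19, limma adjusted p = 0.144). It stayed above 0 in all 9 alternatives, between 0.63 with the GC and length trend removed and 1.07 with a pseudocount of 0.1, with limma adjusted p between 0.0297 and 0.783. It passed the threshold in the fits that left out control replicate 1 (limma adjusted p = 0.0487, with 3.68% of all genes called) or control replicate 2 (limma adjusted p = 0.0297, with 20.1% called).

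Without a tumor Rora was at 13.6 and 6.92 CPM in SRC-3KO Tregs and 9.82 and 2.32 CPM in control libraries, with overlapping genotypes (log2 fold change 0.81, SE 1.09, edgeR adjusted p = 0.910). Leaving out control replicate 1 gave 2.21, and leaving out control replicate 2 gave 0.08. Nr1d2 was at 5.77 and 4.26 FPKM in SRC-3KO Tregs and 3.06 and 3.69 FPKM in control libraries with a tumor, both SRC-3KO libraries above both controls (0.45, SE 0.25, limma adjusted p = 0.415). Without a tumor Nr1d2 was at 1.78 and 2.45 CPM in SRC-3KO Tregs and 1.86 and 3.23 CPM in control libraries, and the genotypes overlapped. Nr1d1 varied most within the controls, at 1.16 and 1.35 FPKM in SRC-3KO Tregs and 2.39 and 0.237 FPKM in control libraries with a tumor. Its no-tumor values were 0.364 and 0.644 CPM in SRC-3KO Tregs and 6.06 and 0 CPM in control libraries. Nr1d1 and Thra share 263 exon bases on opposite strands, and since the sources used here do not name the strand setting of the counting, reads in that stretch cannot be told apart. Rorb had a single library above 0, SRC-3KO replicate 2 without a tumor at 0.0644 CPM.

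Of 18 clock partners and targets of these receptors, 13 were tested with a tumor and 18 without, and 0 were called in either state. The median log2 fold change was 0.38 with a tumor, and 0.19 there without control replicate 1. It was -1.15 without a tumor, which became -0.19 when the GC and length trend was removed and 0.47 when control replicate 1 was left out. Nfil3, a repressor that REV-ERB itself represses, was at 134 and 109 FPKM in SRC-3KO Tregs and 84.6 and 102 FPKM in control libraries with a tumor, without overlap (0.38, SE 0.22, limma adjusted p = 0.423). Without a tumor Nfil3 was at 62.4 and 63.2 CPM in SRC-3KO Tregs and 219 and 33.2 CPM in control libraries. Bhlhe40, a repressor of clock activity that is also induced by T cell activation, was at 91.7 and 66.3 FPKM in SRC-3KO Tregs and 48.9 and 70.9 FPKM in control libraries with a tumor, and at 8.49 and 5.34 CPM in SRC-3KO Tregs and 235 and 18.4 CPM in control libraries without.

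The liver X receptors sense oxysterols and switch on cholesterol efflux and fatty acid synthesis. Nr1h2 (LXR beta, ENSMUSG00000060601, chromosome 7, 44549616 to 44553951, minus strand) stood close between genotypes with a tumor: the values above give 0.14 as log2 fold change (SE 0.19, limma adjusted p = 0.712), and SRC-3KO replicate 2 exceeded control replicate 2 by under 1 FPKM. Without a tumor Nr1h2 was at 35.005 and 25.8 CPM in SRC-3KO Tregs and 118 and 61.0 CPM in control libraries. Both SRC-3KO libraries were below both controls (-1.47, SE 0.80, edgeR adjusted p = 0.910). The value was -0.93 without control replicate 1, -1.93 without control replicate 2 (edgeR adjusted p = 0.00714, of a range over the 8 alternatives between 0.00714 and 0.999997). Removal of the GC and length trend turned it to 0.12.

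Nr1h3 (LXR alpha), best known from liver and macrophages, was above 0.106 FPKM in a single tumor library, control replicate 2 at 5.99 FPKM. That library also held 1531 FPKM of the summed monocyte and macrophage markers (1488 FPKM without Apoe), against 10.4 to 50.8 FPKM in the other 3 tumor libraries (8.92 to 11.5 FPKM without Apoe). Without a tumor Nr1h3 had 0 counts in both SRC-3KO libraries and 20 and 25 counts (0.792 and 1.03 CPM) in control libraries. With 3 counts per library as the floor it was at least 8.88-fold lower in SRC-3KO, a bound that covers counting error only. The edgeR adjusted p was 0.910. The bile acid receptor Nr1h4 reached 0.0396 CPM in control replicate 1 without a tumor and was at 0 elsewhere.

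Of 12 LXR targets in sterol handling, 9 were tested with a tumor and 11 without. Apoe, the lipoprotein that carries effluxed cholesterol, was lower in SRC-3KO than in control libraries with a tumor. It was the only one called. It was at 1.39 and 1.48 FPKM in SRC-3KO Tregs and 39.8 and 43.03 FPKM in control libraries (log2 fold change -4.12, SE 0.20, limma adjusted p = 0.0117). Apoe is also on the monocyte and macrophage marker list. The other 9 markers of that list summed to 11.5 and 8.92 FPKM in SRC-3KO Tregs and 10.95 and 1488 FPKM in control libraries. Of the 10 markers, 4 were at 0 in control replicate 1, Csf1r among them, 1 and 3 in SRC-3KO Tregs and 0 in control replicate 2. The part of these cells in the Apoe values was not tested. Without a tumor Apoe was at 49.5 and 35.2 CPM in SRC-3KO Tregs and 54.1 and 9.60 CPM in control libraries. The list's median was 0.03 with a tumor and -0.62 without. The no-tumor median turned to 0.09 when the GC and length trend was removed and to 1.06 when control replicate 1 was left out.

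Fasn, the fatty acid synthase, is given after its values were seen, because the genotypes stood in opposite order in the 2 states. It was at 42.4 and 41.7 FPKM in SRC-3KO Tregs and 14.4 and 15.0 FPKM in control libraries with a tumor (log2 fold change 1.46, SE 0.17, limma adjusted p = 0.103). Without a tumor it was at 43.1 and 47.8 CPM in SRC-3KO Tregs and 461 and 62.2 CPM in control libraries (-2.45, SE 1.17, edgeR adjusted p = 0.910). Scd2, a stearoyl-CoA desaturase, had the same pattern, with 16.7 and 18.8 FPKM in SRC-3KO Tregs and 10.03 and 11.4 FPKM in control libraries with a tumor. Its no-tumor values were 13.6 and 12.6 CPM in SRC-3KO Tregs and 449 and 15.1 CPM in control libraries. Control replicate 1 was far above the other 3 no-tumor libraries for both genes, and when it was left out the log2 fold changes were -0.38 for Fasn and -0.13 for Scd2.

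The peroxisome proliferator-activated receptors bind fatty acids. Pparg, the receptor of adipose tissue Tregs, was at 0.935 and 2.54 FPKM in SRC-3KO Tregs and 1.21 and 0.756 FPKM in control libraries with a tumor. Its no-tumor values were 10.4 and 0.418 CPM in SRC-3KO Tregs and 11.4 and 3.60 CPM in control libraries. The SRC-3KO replicates differed from each other more than the group means did in both states. Ppard, the widely expressed member, was at 1.60 and 1.77 CPM in SRC-3KO Tregs and 7.60 and 3.35 CPM in control libraries without a tumor (log2 fold change -1.60, SE 1.17, edgeR adjusted p = 0.910), both SRC-3KO libraries being below both controls. Removal of the GC and length trend gave -0.85 for Ppard, and leaving out control replicate 1 gave -0.91. With a tumor it stayed below 1 FPKM, at 0.305 and 0.954 FPKM in SRC-3KO Tregs and 0.0278 and 0.343 FPKM in control libraries. Ppara, the liver member, was at or under 0.00955 FPKM with a tumor and reached 0.396 CPM in control replicate 1 without.

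Of 14 PPAR targets in fatty acid use, 11 were tested with a tumor and 12 without, and 0 were called. The median log2 fold change was -0.23 with a tumor (-0.35 without control replicate 1) and 0.07 without. The no-tumor median was 0.21 when the trend was removed, 0.26 when control replicate 1 was left out, and -0.85 when control replicate 2 was. Fabp5, a fatty acid chaperone, was at 71.1 and 66.0 FPKM in SRC-3KO Tregs and 94.6 and 148 FPKM in control libraries with a tumor, without overlap (-0.78, SE 0.26, limma adjusted p = 0.261). Ucp2, a mitochondrial carrier and the highest of the list, was at 199 and 159 FPKM in SRC-3KO Tregs and 166 and 161 FPKM in control libraries with a tumor, and at 586 and 524 CPM in SRC-3KO Tregs and 3018 and 467 CPM in control libraries without. Acadl, an acyl-CoA dehydrogenase, was at 103 and 79.6 CPM in SRC-3KO Tregs and 384 and 81.7 CPM in control libraries without a tumor.

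The glucocorticoid receptor Nr3c1 (ENSMUSG00000024431, chromosome 18, 39410545 to 39519421, minus strand) was the only tested receptor that stood above both controls in both SRC-3KO libraries in each tumor state. Of all genes tested, 27.5% stood so with a tumor and 18.3% without, and the share that did so in both states was not counted. With a tumor it was at 19.9 and 14.7 FPKM in SRC-3KO Tregs and 10.7 and 12.2 FPKM in control libraries (log2 fold change 0.54, SE 0.23, limma adjusted p = 0.324). Without a tumor it was at 48.2 and 29.4 CPM in SRC-3KO Tregs and 27.96 and 28.4 CPM in control libraries (0.56, SE 0.73, edgeR adjusted p = 0.910). The controls lay close together without a tumor, and SRC-3KO replicate 2 exceeded them by about 1 CPM. The log2 fold change was above 0 in all 9 alternatives with a tumor (0.26 to 0.75) and all 8 without (0.31 to 0.85). Nr3c1 was 20.2% and 15.5% of the summed receptor level in SRC-3KO Tregs and 3.75% and 9.74% in control libraries without a tumor, where most other receptors stood lower. The mineralocorticoid receptor Nr3c2 did not exceed 0.0429 FPKM or 0.0396 CPM.

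Of 15 targets and chaperones of the glucocorticoid receptor, 14 were tested in each state and 0 were called. The median log2 fold change was 0.09 with a tumor (0.04 with the trend removed and 0.17 without control replicate 2) and -0.33 without. The no-tumor median was -0.14 when the trend was removed, and it turned to 0.29 when control replicate 1 was left out. The chaperone Hsp90ab1, which holds the receptor ready to bind hormone, was at 880 and 943 FPKM in SRC-3KO Tregs and 897 and 780 FPKM in control libraries with a tumor, and at 4233 and 4649 CPM in SRC-3KO Tregs and 5093 and 4296 CPM in control libraries without. Its stress-inducible relative Hsp90aa1 was at 968 and 1123 CPM in SRC-3KO Tregs and 84.4 and 1196 CPM in control libraries without a tumor, control replicate 1 being the low one. Stip1, which links the Hsp70 and Hsp90 chaperones, was at 144 and 162 FPKM in SRC-3KO Tregs and 174 and 141 FPKM in control libraries with a tumor.

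The vitamin D receptor Vdr (ENSMUSG00000022479, chromosome 15, 97854425 to 97910630, minus strand) gave the sharpest contrast without a tumor. It had 0 counts in both SRC-3KO libraries and 228 and 88 counts in control libraries, or 9.03 and 3.64 CPM. Each control lay far above the limit that a count of 0 allows, and Vdr was at least 61.6-fold lower in SRC-3KO with 3 counts per library as the floor. That bound covers counting error only. Libraries of the same genotype could differ as widely, with 121 and 0 counts of Rarg and 153 and 0 counts of Nr1d1 in the controls. Leaving out control replicate 1 gave a bound of 35.4-fold, and leaving out control replicate 2 one of 87.7-fold. The edgeR adjusted p was 0.910, and over the 8 alternatives adjusted p ran between 0.00131 and 0.999997, with 3 under 0.05: DESeq2 (0.00131), no filter on low counts (0.0381, where 0.264% of all genes were called) and no control replicate 2 (0.00779). With a tumor Vdr was low in every library, at 1.13 and 0.676 FPKM in SRC-3KO Tregs and 0.731 and 2.24 FPKM in control libraries, and the genotypes overlapped (log2 fold change -0.33, SE 0.37, limma adjusted p = 0.670).

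**Figure D5:**
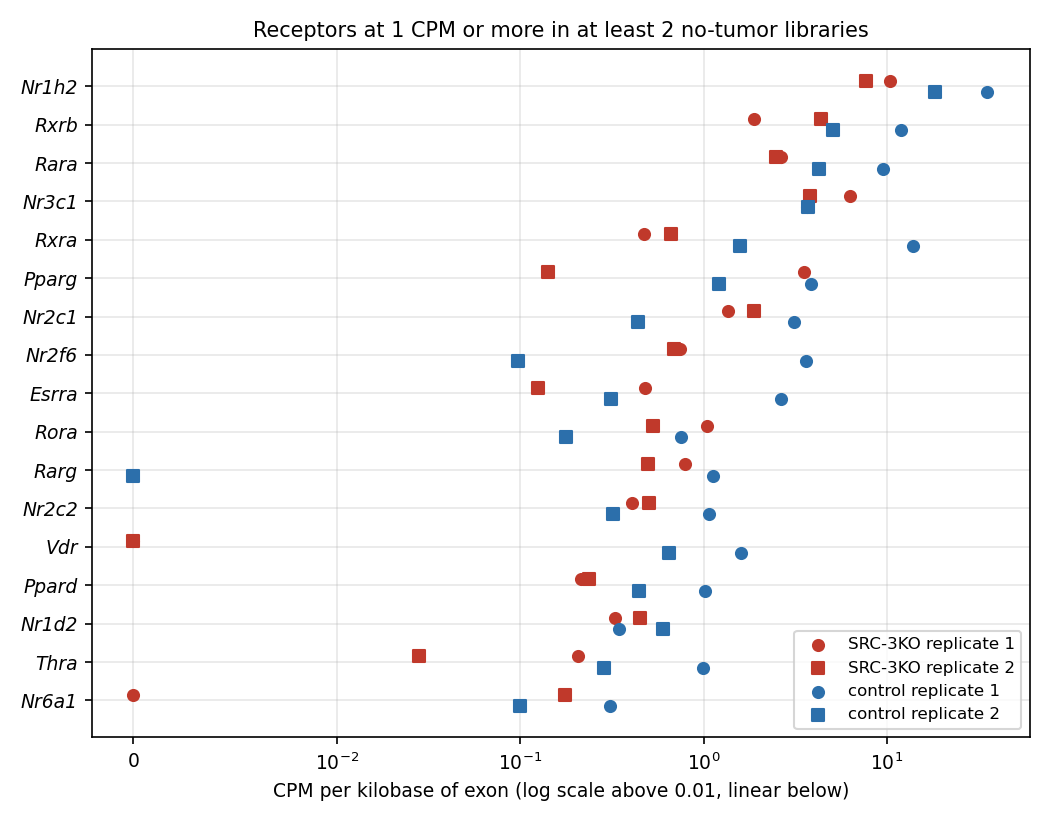
CPM per kilobase of exon of the receptors expressed in the no-tumor libraries, on an axis that is logarithmic except near 0. Receptors are ordered by mean level, with 1 point per library and SRC-3KO beside control. Vdr has both SRC-3KO libraries at 0 counts and controls at 1.60 and 0.645 CPM per kilobase, and control replicate 1 is the highest library for most receptors.

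The 6 genes of vitamin D metabolism and response were mostly silent: 1 was tested with a tumor and 2 without, and 0 were called. Cyp2r1, the hydroxylase that starts vitamin D activation, was at 0.110 and 0.245 FPKM in SRC-3KO Tregs and 1.13 and 1.20 FPKM in control libraries with a tumor (log2 fold change -0.88, SE 0.24, limma adjusted p = 0.208). Without a tumor it was at 3.57 and 1.45 CPM in SRC-3KO Tregs and 0.0396 and 10.6 CPM in control libraries. Camp, an antimicrobial peptide that is also a neutrophil marker, was at 61.1 FPKM in tumor control replicate 2 and at 0 in the other 3 tumor libraries. The neutrophil markers summed to 1.69 and 0.180 FPKM in SRC-3KO libraries and 4.73 and 3998 FPKM in control libraries.

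Among the xenobiotic receptors Nr1i2 stayed at or under 0.0180 FPKM, while Nr1i3 split by table. It was at 3.17 and 3.26 FPKM in SRC-3KO Tregs and 3.05 and 2.83 FPKM in control libraries with a tumor, and at 0 counts in all 4 libraries without. Of the exon bases of Nr1i3, 74.9% lie within exons of Tomm40l on the opposite strand, a mitochondrial import gene detected in all 8 libraries. Tomm40l was at 2.45 and 3.91 FPKM in SRC-3KO Tregs and 4.54 and 3.20 FPKM in control libraries with a tumor, and at 5.83 and 5.63 CPM in SRC-3KO Tregs and 11.6 and 10.4 CPM in control libraries without. Without the strand setting, reads of the pair cannot be told apart, so expression of Nr1i3 itself is uncertain.

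The orphan receptors expressed here were Nr2c1, Nr2c2 and Nr2f6, of which Nr2f6 is known in mouse T cells as a repressor of cytokine genes. Nr2f6 was at 4.52 and 3.95 FPKM in SRC-3KO Tregs and 2.25 and 4.86 FPKM in control libraries with a tumor, and at 2.22 and 2.06 CPM in SRC-3KO Tregs and 10.8 and 0.290 CPM in control libraries without. In both states the SRC-3KO libraries lay between the controls. Its exons share 54.4% of their bases with Ocel1 on the opposite strand, so its level too is uncertain. Nr2c2 (TR4) was at 2.52 and 3.79 FPKM in SRC-3KO Tregs and 2.08 and 1.65 FPKM in control libraries with a tumor, without overlap (log2 fold change 0.52, SE 0.27, limma adjusted p = 0.387). Removal of the GC and length trend left 0.11, and 30.7% of its exon bases are shared with Mrps25. Without a tumor it was at 6.05 and 7.50 CPM in SRC-3KO Tregs and 15.9 and 4.76 CPM in control libraries. Nr2c1 (TR2) overlapped between genotypes, at 2.09 and 2.19 FPKM in SRC-3KO Tregs and 1.24 and 2.93 FPKM in control libraries with a tumor, and at 6.27 and 8.66 CPM in SRC-3KO Tregs and 14.4 and 2.03 CPM in control libraries without. Nr2e1, Nr2f1 and Nr2f2 had reads only in control replicate 1 without a tumor, at 0.119 CPM or less.

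The oestrogen-related receptor alpha Esrra, a regulator of mitochondrial genes, turned on single control libraries in both states. With a tumor it was at 4.82 and 6.39 FPKM in SRC-3KO Tregs and 1.30 and 5.88 FPKM in control libraries (log2 fold change 0.72, SE 0.54, limma adjusted p = 0.524). Leaving out control replicate 1 gave -0.07, and leaving out control replicate 2 gave 1.51. Without a tumor Esrra was at 2.11 and 0.547 CPM in SRC-3KO Tregs and 11.6 and 1.37 CPM in control libraries, and the log2 fold change was -2.25, against 0.02 without control replicate 1. Esr1 was at or under 0.0228 FPKM with a tumor and at 0.911 and 0.483 CPM in SRC-3KO Tregs and 0 and 0.704 CPM in control libraries without. Esrrb did not exceed 0.0396 CPM, and Esrrg was above 0 in SRC-3KO replicate 2 without a tumor alone, at 0.386 CPM.

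The thyroid hormone receptor Thra was at 0.947 and 0.129 CPM in SRC-3KO Tregs and 4.59 and 1.32 CPM in control libraries without a tumor, both SRC-3KO libraries being below both controls (log2 fold change -2.42, SE 1.67, edgeR adjusted p = 0.910). Removal of the GC and length trend gave -0.76, and leaving out control replicate 1 gave -1.24. With a tumor Thra was at 0.0616 and 0.148 FPKM in SRC-3KO Tregs and 0.115 and 0.0897 FPKM in control libraries. Thrb had 1.11 CPM in control replicate 1 without a tumor and at most 0.00295 FPKM with one. The germ cell nuclear factor Nr6a1 was at 0 and 1.90 CPM in SRC-3KO Tregs and 3.33 and 1.08 CPM in control libraries without a tumor. With one it was at 0.0179 and 0.0195 FPKM in SRC-3KO Tregs and 0.0173 and 0.0142 FPKM in control libraries. Nr5a1 and Nr5a2 did not exceed 0.0396 CPM or 1.2e-05 FPKM.

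The coregulators that receptors recruit were tested for 24 of 25 genes in each state, and 0 were called. With a tumor 12 of the 24 stood above both controls in both SRC-3KO libraries (against 27.5% of all genes) and 2 below (against 24.9%), with a median log2 fold change of 0.43, which was 0.04 once the GC and length trend was removed. Without a tumor 2 stood above (against 18.3%) and 9 below (against 21.0%), with a median of -0.45, which became -0.07 once the trend was removed and -0.01 without control replicate 1. Prmt1, an arginine methyltransferase that acts with SRC proteins, was at 72.4 and 86.8 FPKM in SRC-3KO Tregs and 95.0 and 61.3 FPKM in control libraries with a tumor, and at 465 and 501 CPM in SRC-3KO Tregs and 356 and 416 CPM in control libraries without. Gps2, a subunit of the corepressor complex, was at 113 and 87.8 CPM in SRC-3KO Tregs and 127 and 113 CPM in control libraries without a tumor.

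Of 10 genes that mark Tregs and T cells, 10 were tested in each state and 0 were called. With a tumor 8 of the 10 stood above both controls in both SRC-3KO libraries (against 27.5% of all genes), with a median log2 fold change of 0.68. Without a tumor 4 stood above (against 18.3%) and 4 below (against 21.0%). Tnfrsf4 (OX40), the highest with Tnfrsf18 (GITR), was at 1530 and 1541 FPKM in SRC-3KO Tregs and 1929 and 1251 FPKM in control libraries with a tumor, and at 3845 and 4043 CPM in SRC-3KO Tregs and 1039 and 3349 CPM in control libraries without. Tnfrsf18 was at 1164 and 1020 FPKM in SRC-3KO Tregs and 1237 and 781 FPKM in control libraries with a tumor, and at 2471 and 2228 CPM in SRC-3KO Tregs and 179 and 1921 CPM in control libraries without.

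Markers of other cells differed between the same libraries. With a tumor the B cell and plasma cell markers summed to 515 and 466 FPKM in SRC-3KO Tregs and 1939 and 2641 FPKM in control libraries; 4 of 8 tested of the 12 were called lower by limma, and Pax5 and Cr2 were at or under 0.0144 FPKM in all 4 libraries. The CD8 T and NK cell markers summed to 111 and 101 FPKM in SRC-3KO Tregs and 273 and 181 FPKM in control libraries, with 0 of 4 tested of the 8 called and Cd8a at or under 0.729 FPKM. The dendritic cell markers summed to 5.13 and 6.97 FPKM in SRC-3KO Tregs and 3.24 and 10.5 FPKM in control libraries. Of 3 tested of the 10 monocyte and macrophage markers 1 was called lower, the Apoe described above, and of 3 tested of the 8 neutrophil markers 0 were called, Ly6g being at 0 in all but control replicate 2. Without a tumor the B cell and plasma cell markers summed to 1124 and 604 CPM in SRC-3KO Tregs and 172 and 1730 CPM in control libraries, the CD8 T and NK cell markers to 625 and 484 CPM in SRC-3KO Tregs and 1473 and 180 CPM in control libraries, and the neutrophil markers to 0.0364 and 1.45 CPM in SRC-3KO Tregs and 0.0792 and 333 CPM in control libraries. There 0 markers of any list were called. The part of these cells in the receptor values was not tested.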

How the data were processed

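RNA was measured in 8 libraries of sorted splenic Tregs, 2 in each of 4 groups. Per the submitters' processing notes, the authors' tools were STAR and featureCounts on mm10, with FastQC, Trim Galore and edgeR. The sources used here give no versions, strand setting or annotation release. The authors deposited raw gene counts for the 4 no-tumor libraries and FPKM values, from StringTie per the file headers, for the 4 tumor libraries. No other column of per-sample values was present.

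Without a tumor, counts were tested with edgeR 4.0.16 (R 4.3.3; filterByExpr, TMM factors between 0.916 and 1.09, quasi-likelihood test). With a tumor, log2(FPKM + 1) values were tested with limma 3.58.1 (trend option), keeping genes that reached 1 FPKM in 2 or more libraries; fold changes on that scale understate the change of low genes. Tumor against no tumor was not tested. Both tests were fitted on the whole table with Benjamini-Hochberg adjustment (threshold 0.05), and were run on simulated data. For edgeR, recovery of changed genes was required there only at a dispersion far below the 0.791 of these data. Those runs do not show that edgeR finds changes in these libraries. CPM used the total counts of each library, and levels between genes used FPKM or CPM per kilobase of exon in GENCODE vM21, to which 55227 of 55487 genes matched. GC content and length were known for 99.9% of tested genes, and their trend was removed with mgcv 1.9.3 as an alternative. Other alternatives were DESeq2 1.42.0, RLE factors, no filter, another pseudocount, median-of-ratios scaling, a replicate block and leaving out each replicate.

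All members are accounted for, and members expressed in either table have the value in each library given. From each pathway list the text names called genes, otherwise the 2 with the highest mean level. The members and lists were chosen with earlier results of these data known.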

Additional observations from a re-analysis of the deposited data

Results flagged for a closer look

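Both SRC-3KO libraries stood above both controls in one tumor state and below both in the other for the summed receptor level and for the genes below. This arrangement held for 2 of 15 receptors tested in both states (Rara and Nr1h2) and for 17 of 87 genes of the pathway lists, of which those named in the report are given, against 15.0% of the 11674 genes tested in both states. In each case the difference between the states was not tested. The summed receptor level had a log2 ratio of means of 0.37 with a tumor and -1.28 without. Rara had log2 fold changes of 0.76 with a tumor and -1.34 without, and Nr1h2 of 0.14 with a tumor and -1.47 without. Removal of the GC and length trend turned these no-tumor values to 0.48 for Rara and 0.12 for Nr1h2, so their opposite directions depend on that trend. Fasn had 1.46 with a tumor and -2.45 without, and Scd2 0.68 with a tumor and -4.08 without. Foxp3 had 0.52 with a tumor and -3.01 without. With the trend removed the no-tumor values were -0.45 for Fasn, -3.52 for Scd2 and -1.74 for Foxp3. Without control replicate 1 they were -0.38 for Fasn, -0.13 for Scd2 and -0.48 for Foxp3. Leaving out that library gave -0.67 for Rara, -0.93 for Nr1h2 and -0.45 for the summed level without a tumor. Crabp2 had the opposite arrangement, at -0.77 with a tumor and 2.17 without. Control replicate 1 was the highest no-tumor library for the summed level, Rara, Nr1h2, Fasn, Scd2 and Foxp3, and the lowest for Crabp2.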

How the results depend on the processing

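With 2 libraries per group and an edgeR dispersion of 0.791 without a tumor, precision is low, and no read depth is known with a tumor. In fits that leave out a library, the lone one left is assumed to vary like the others. Without a tumor, 0 genes and 0 receptors were called, also with RLE factors or the GC and length trend removed, against 87 genes and 1 receptor (Vdr) with DESeq2, and 70 genes and 1 receptor (Vdr) with no filter. Leaving out a replicate gave 0 to 7434 genes and 0 to 7 receptors, both highest without control replicate 2, where Rxra, Nr1h2, Nr2f6, Nr1d1, Rara, Vdr and Ppard were called, and 1 gene without control replicate 1. With a tumor, 14 genes and 0 receptors were called, against 7 genes with a pseudocount of 0.1, 1 with no filter, and 11 with median-of-ratios scaling or the trend removed, each with 0 receptors. Leaving out a replicate gave 31 to 2510 genes and 0 to 3 receptors (Rora without control replicate 1, with 459 genes; Esrra, Rora and Rara without control replicate 2). The replicate block called 72 genes and 0 receptors with a tumor; the deviations of same-numbered libraries correlated at 0.0357, so the numbers are not shown to pair, and those without a tumor are accession order. At a limit of 5 instead of 1, 7 receptors were expressed with a tumor and 9 without; at 0.5 the numbers were 16 and 20. Among the values of single receptors under these alternatives, 4 passed the threshold with a tumor and 136 did not; without a tumor 9 did and 151 did not.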
